A study of Mus musculus with 15 samples.

Results

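The proteasome genes described here are the annotated mouse symbols that begin with Psma, Psmb, Psmc, Psmd, Psme, Psmf or Psmg followed by a digit, without Psmb8 and Psmb9. On the arrays used, 47 of 18190 genes with a symbol of their own matched, and the brightest probe set of each (by mean log2 signal) stood for it. Of these, 45 lay above the filter on dim probe sets and were tested among 13111 genes. Psma8 and Psmb11, which encode tissue-restricted core subunits, fell below it. Psme2 and Psme2b were annotated only together with another symbol and were not analysed here. Psmc3ip and Psme3ip1 match by symbol only, since they are named as partners of the Psmc3 and Psme3 products and encode no proteasome subunit. Both were tested and are counted among the 45, though neither passed in any comparison.

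RNA from the heart apex of male mice was hybridised to whole-genome Affymetrix arrays, 1 array per mouse and 5 per strain. The cross B6C3F1 (B6C3F1/J) was set beside its inbred parents C3H (C3H/HeJ) and C57Bl/6 (C57BL/6J). All mice were 9 to 10 weeks old and untreated, but each of them, in all 3 strains, had been anaesthetised with tribromoethanol at 7 weeks to receive an abdominal telemetry transmitter. The study set heart expression beside cardiac physiology and pathology, and the comparisons here ask whether the genes of the proteasome differ with strain and how much they vary from mouse to mouse.

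The proteasome is the barrel-shaped protease that degrades proteins tagged with ubiquitin. Its core is built of alpha rings that gate the barrel and beta rings that hold the catalytic sites, and the regulatory particle that caps it has a base with a ring of ATPases that unfold substrates and a lid that removes ubiquitin. Other caps (the activators), an inhibitor and dedicated assembly chaperones act on the same core. In the heart it clears damaged and surplus sarcomere and other proteins, and its subunit genes are known to be raised together by the transcription factor encoded by Nfe2l1 when proteasome activity is short.

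Signals are given as log2(signal + 16), and a difference on that scale is the log2 of a fold change that is understated at low signal. Differences were tested with limma in 1 fit over all 15 arrays, with Benjamini-Hochberg adjustment over the 13111 genes, and passing means an adjusted p below 0.05. Error terms are SD over 5 arrays unless an SE or a 95% interval is named. The signal of one probe set was not compared with that of another gene's probe set.

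The arrays were scaled alike, and all 8 cardiomyocyte markers lay far above the filter, with strain means of 14.40 to 16.28 in signal against a filter at 5.74. None of those 8 passed in any comparison. Markers of other cells did: for C3H minus C57Bl/6, 2 of 8 endothelial markers were lower, 3 of 8 fibroblast markers were higher, 1 of 7 leukocyte markers was higher and 1 lower, and 1 of 4 atrial markers was higher. Of all genes tested, 7.25% were called higher and 8.4% lower in that comparison. The fibroblast markers did not share a direction: 5 of the 8 differences were positive and 3 negative, from -0.58 to 0.76. The only red cell marker tested of 4 listed, Alas2, the heme synthesis enzyme of that lineage, was also lower in C3H, at -0.79 in log2 (1.72-fold; limma adjusted p = 0.0158). For B6C3F1 minus C57Bl/6, 1 of 8 endothelial markers was lower and 2 of 8 fibroblast markers were higher. Of all genes, 1.77% were called lower and 2.06% higher there. For B6C3F1 minus C3H, 2 of 8 endothelial markers and 1 of 7 leukocyte markers were higher and 1 of 4 atrial markers was lower. Of all genes, 6.2% were called in either direction there. What part these have in the differences below was not tested. Poly-A control RNAs, added during labelling, averaged 10.33 ± 0.13 on B6C3F1 arrays, 11.05 ± 0.80 on C3H arrays and 10.26 ± 0.57 on C57Bl/6 arrays (log2, n = 5 each). C3H array 4 (12.48) and C57Bl/6 array 5 (9.25) stood apart in this measure. The ratio of the 3 prime to the 5 prime Gapdh probe set, which rises with RNA breakdown, was 0.90 ± 0.21, 0.60 ± 0.26 and 0.85 ± 0.24 in B6C3F1, C3H and C57Bl/6 on the log2 scale. Tissue pieces were measured whole, so that fewer cells of a type and less RNA per cell cannot be told apart. Sample numbers run in 1 block per strain, and an effect of handling order and one of strain cannot be told apart either.

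Taken as a group, the genes sat at nearly the same signal in the 3 strains. The mean over the 45 tested genes was 11.91 ± 0.04 on B6C3F1 arrays, 11.88 ± 0.06 on C3H arrays and 11.92 ± 0.06 on C57Bl/6 arrays (n = 5 each), and the 15 array means ran from 11.83 to 11.98. Between C3H and C57Bl/6, 6 of the 45 genes passed (13.3%), against 15.7% of all genes tested. Psmg4 and Psme1 were higher in C3H (2 of 45, against 7.25% of all genes called higher), and Psmb7, Psmd2, Psmd9 and Psme4 were lower (4 of 45, against 8.4% called lower). Which genes passed moved with the scaling, while the differences of these 6 kept their signs. With each array centred on its median, 5 of 45 passed, all of them higher in C3H and 0 lower (Psmc4, Psmd8, Psme1, Psmf1 and Psmg4), against 14.4% of all genes. With quantile normalization 2 were higher and 4 lower, against 16.3% of all genes, and Psmc5 took the place of Psmd9 among the lower ones. Between B6C3F1 and C57Bl/6, 2 of 45 passed (4.44%), against 3.83% of all genes: Psme1 was higher and Psmc5 lower in B6C3F1, where 2.06% of all genes were called higher and 1.77% lower. Between B6C3F1 and C3H, 0 of 45 passed in the limma fit, against 6.2% of all genes, and 3 had an unadjusted p under 0.05 (Psmb2, Psmd6 and Psmd9), against 19.7% of all genes. Between B6C3F1 and the midparent (the average of the 2 parental means in log2), 0 of 45 passed in the limma fit, against 0.633% of all genes, and 5 had an unadjusted p under 0.05 (Psma6, Psmc5, Psmd4, Psmd13 and Psme1), against 14.7% of all genes.

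The intervals show how large most of these differences could be. For C3H minus C57Bl/6, the 95% interval lay wholly within 1.5-fold for 37 of the 45 genes (82.2%), against 46.6% of all genes tested. The counts were 38 for B6C3F1 minus C57Bl/6 (51.7% of all genes), 43 for B6C3F1 minus C3H (53.1%) and 44 for B6C3F1 minus the midparent (64.2%). These shares move with signal, since bright probe sets vary less, and most of the proteasome genes are bright (below).

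**Figure D1:**
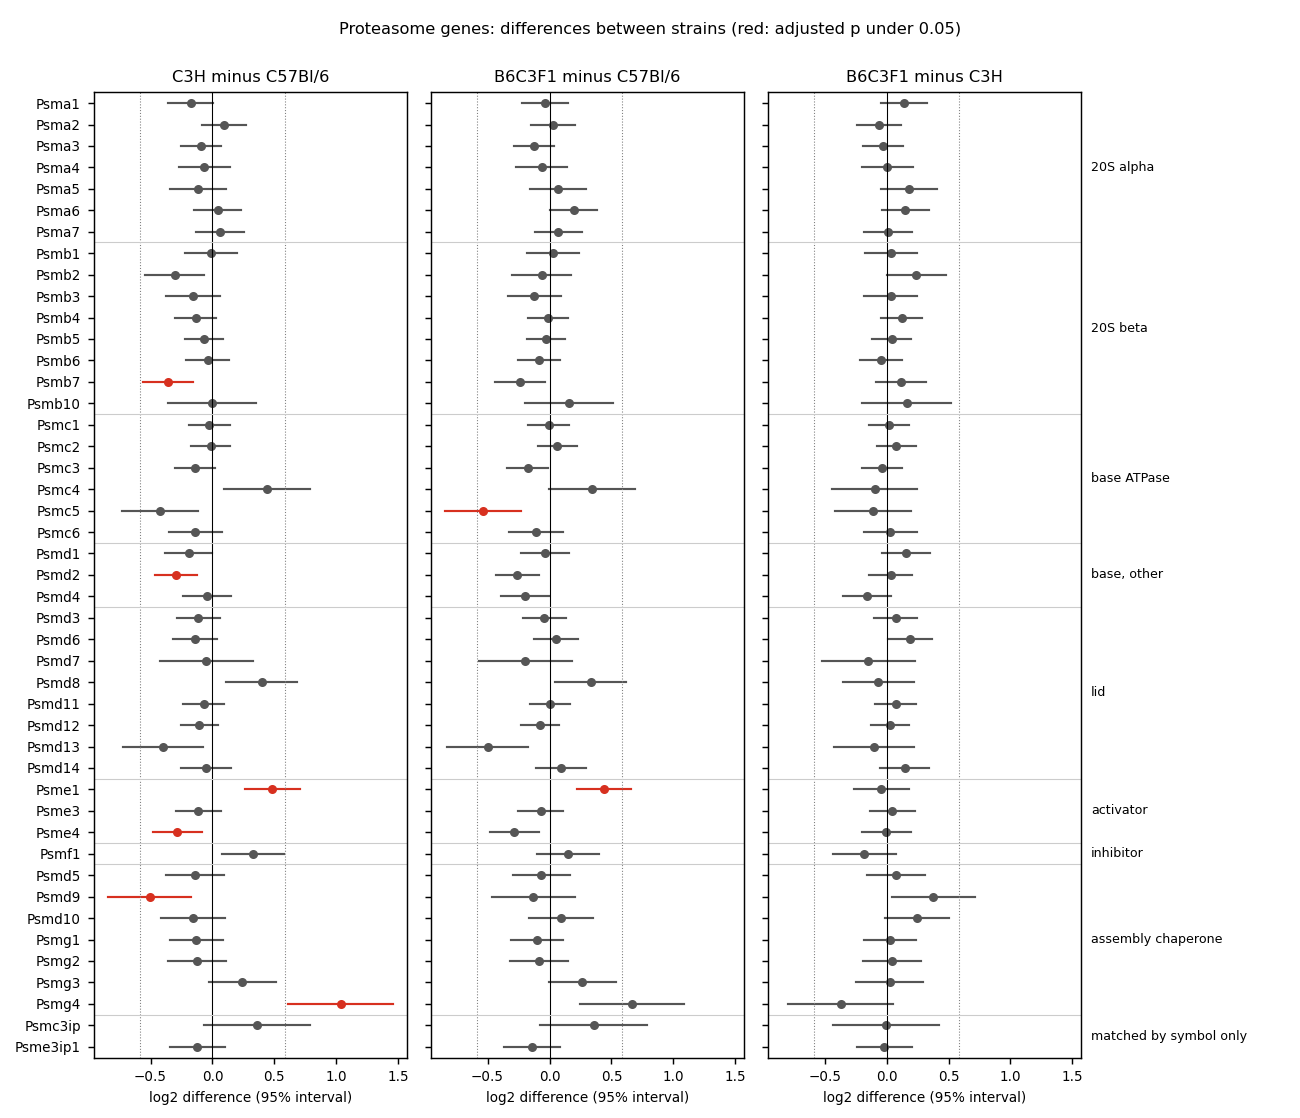
Log2 differences between strains (x axis, point with 95% interval) for the 45 tested genes, grouped by role down the page, in 3 comparisons with a shared axis; dotted lines mark 1.5-fold and red marks an adjusted p under 0.05. Psmg4 has the largest difference, 1.04 for C3H minus C57Bl/6, and no red point appears for B6C3F1 minus C3H.

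For the genes that passed, the windows around the annotated start sites were read from RefSeq for GRCm38.p6, a build of the C57BL/6J genome. The table used here holds windows for 39 of the 47 genes and 6 of the 7 that passed (Psmb7 is named only). Each runs from 250 bases before the start to 50 after it. They were searched on both strands for 3 short patterns: TGACNNNGC, the core of the antioxidant response element that factors of the Nfe2l1 family bind, CCAAT, and GAAA repeated after any 2 bases, the core of the interferon-stimulated response element. No pattern overlapped another in the windows shown. The windows printed are those of the 4 passing genes with a match, on the plus strand at chr14:55578244-55578543 (Psme1), chr13:34162714-34163013 (Psmg4), chr5:123227940-123228239 (Psmd9) and chr11:30771525-30771824 (Psme4). Capitals mark the matches, and the bases run 5′ to 3′ along the gene.
Psme1: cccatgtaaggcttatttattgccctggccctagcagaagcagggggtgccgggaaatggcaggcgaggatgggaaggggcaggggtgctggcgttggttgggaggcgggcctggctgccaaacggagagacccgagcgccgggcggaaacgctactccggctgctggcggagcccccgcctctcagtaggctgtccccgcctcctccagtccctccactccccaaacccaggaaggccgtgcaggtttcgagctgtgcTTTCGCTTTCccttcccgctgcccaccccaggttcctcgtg
Psmg4: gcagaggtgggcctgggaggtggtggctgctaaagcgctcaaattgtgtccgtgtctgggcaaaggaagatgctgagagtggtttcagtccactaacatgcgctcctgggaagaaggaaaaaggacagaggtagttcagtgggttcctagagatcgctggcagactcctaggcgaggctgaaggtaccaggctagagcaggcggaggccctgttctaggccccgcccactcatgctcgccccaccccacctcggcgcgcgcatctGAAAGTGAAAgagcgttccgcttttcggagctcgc
Psmd9: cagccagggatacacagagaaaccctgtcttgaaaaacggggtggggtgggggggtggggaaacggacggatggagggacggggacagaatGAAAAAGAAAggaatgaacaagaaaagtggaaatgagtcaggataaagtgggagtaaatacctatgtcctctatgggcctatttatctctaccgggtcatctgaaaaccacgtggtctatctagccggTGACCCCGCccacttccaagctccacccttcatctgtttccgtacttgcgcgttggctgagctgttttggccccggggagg
Psme4: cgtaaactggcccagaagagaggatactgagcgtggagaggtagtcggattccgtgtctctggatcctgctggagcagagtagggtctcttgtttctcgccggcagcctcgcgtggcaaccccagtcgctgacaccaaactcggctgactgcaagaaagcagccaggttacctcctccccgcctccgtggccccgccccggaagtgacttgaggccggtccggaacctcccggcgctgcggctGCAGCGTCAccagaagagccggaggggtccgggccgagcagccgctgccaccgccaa
Psme1 and Psmg4, the genes higher in C3H than in C57Bl/6, each held the interferon-type core, with its first base 9 and 15 bases after the start base. Psmd9, lower in C3H, held it at position -159 and an antioxidant-type core at -31, counted from the start base as 0, and Psme4, also lower, held an antioxidant-type core at -7. The windows of Psmc5 and Psmd2 held neither core, and CCAAT was in none of the 6. Over the 42 windows of all matched proteasome genes, TGACNNNGC was found in 6 (14.3%), against 12.4% of 32851 windows of all genes. CCAAT was found in 15 (35.7%), against 37.4%. The paired GAAA was found in 5 (11.9%: Psmb3, Psmd4, Psmd9, Psme1 and Psmg4), against 3.44%. A match of this length is a description of the letters in the window of 1 strain's genome, and the other strains' sequences were not used here.

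Among the core genes, differences were small. None of the 7 alpha genes passed in any comparison, and their C3H minus C57Bl/6 differences ran from -0.18 to 0.09. Of the 8 beta genes, 1 passed in that comparison. Psmb7 encodes the constitutive subunit with trypsin-like activity. Its signals were 13.04, 13.08, 13.05, 13.20 and 13.52 on B6C3F1 arrays, 13.18, 12.94, 13.09, 12.86 and 13.22 on C3H arrays and 13.45, 13.35, 13.35, 13.43 and 13.50 on C57Bl/6 arrays. All 5 C3H arrays lay below all 5 C57Bl/6 arrays, as did 4 of the 5 B6C3F1 arrays, while B6C3F1 array 5 was the highest of the 15. The C3H minus C57Bl/6 difference was -0.36 ± 0.10 (SE; 1.28-fold; limma adjusted p = 0.0143), and for B6C3F1 minus C57Bl/6 it was -0.24 (adjusted p = 0.170). The first call was lost when each array was centred on its median (-0.25, adjusted p = 0.174).

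The other catalytic genes did not pass. Psmb5, which encodes the subunit with chymotrypsin-like activity, had signals of 13.59, 13.81, 13.74, 13.86 and 13.78 on B6C3F1 arrays, 13.77, 13.70, 13.62, 13.66 and 13.84 on C3H arrays and 13.84, 13.84, 13.79, 13.69 and 13.76 on C57Bl/6 arrays. The 3 strains overlapped throughout, and the 95% interval of the C3H minus C57Bl/6 difference was -0.22 to 0.09. Psmb6, which encodes the subunit with caspase-like activity, had signals of 13.02, 13.09, 12.90, 13.11 and 13.01 on B6C3F1 arrays, 13.03, 13.08, 12.97, 13.03 and 13.24 on C3H arrays and 13.02, 13.25, 13.18, 12.93 and 13.18 on C57Bl/6 arrays. Here too the strains overlapped, with an interval of -0.21 to 0.13. Psmb10 encodes the interferon-inducible subunit that takes the place of the Psmb7 product in immunoproteasomes. Its signals were 10.98, 10.68, 11.02, 10.99 and 11.03 on B6C3F1 arrays, 10.58, 11.04, 10.58, 10.29 and 11.40 on C3H arrays and 10.52, 10.85, 11.08, 10.46 and 11.01 on C57Bl/6 arrays. The C3H arrays alone spanned the range of the other two strains, and the interval of C3H minus C57Bl/6 was wide, -0.36 to 0.35. The largest remaining beta difference was that of Psmb2, -0.30 for C3H minus C57Bl/6 (adjusted p = 0.0779).

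In the base, Psmd2 and Psmc5 passed, each in 1 comparison. Psmd2 encodes the large scaffold subunit of the base that receives ubiquitin-like shuttle proteins. Its signals were 13.04, 12.78, 13.03, 12.99 and 13.15 on B6C3F1 arrays, 13.15, 12.93, 12.84, 12.90 and 12.99 on C3H arrays and 13.34, 13.19, 13.23, 13.28 and 13.25 on C57Bl/6 arrays. Every C57Bl/6 array lay above every array of the other strains. The difference was -0.29 ± 0.08 for C3H minus C57Bl/6 (SE; 1.23-fold; limma adjusted p = 0.0183) and -0.26 for B6C3F1 minus C57Bl/6 (adjusted p = 0.0798). The C3H call was lost with each array centred on its median (-0.19, adjusted p = 0.241), and the sign turned when the gene's other, dim probe set was averaged in (0.17, adjusted p = 0.670).

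Psmc5 encodes one of the ATPases of the ring that unfolds substrates. Its signals were 11.29, 11.18, 11.18, 11.40 and 11.75 on B6C3F1 arrays, 11.93, 11.38, 11.56, 11.14 and 11.34 on C3H arrays and 11.97, 11.51, 12.16, 11.79 and 12.05 on C57Bl/6 arrays. B6C3F1 array 5 and C3H array 1 were the highest of their strains and C57Bl/6 array 2 was the lowest of its own, which is where the strains overlapped. The B6C3F1 minus C57Bl/6 difference was -0.53 ± 0.15 (SE; 1.45-fold; limma adjusted p = 0.0467), a call lost in 15 of the 32 alternatives. For C3H minus C57Bl/6 it was -0.43 (adjusted p = 0.0553). The other 5 ATPase genes did not pass, and the largest difference among them was that of Psmc4, 0.44 for C3H minus C57Bl/6 (adjusted p = 0.0814).

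None of the 8 lid genes passed on the probe set used. The largest C3H minus C57Bl/6 differences were those of Psmd8 (0.40, adjusted p = 0.0546) and Psmd13 (-0.40, adjusted p = 0.0932), both structural subunits of the lid. For B6C3F1 minus C57Bl/6, Psmd13 stood at -0.50 (adjusted p = 0.0738). Over the 32 tested genes of core, base and lid, 27 had a negative C3H minus C57Bl/6 difference and 5 a positive one, with a median of -0.08, against a median of -0.02 over all genes. All 45 genes divided into 10 positive and 35 negative, with a median of -0.11, where the 13111 genes tested divided into 6222 positive and 6889 negative. Quantile normalization gave the same division of 10 and 35, with a median of -0.12 for the 45, against 0.01 for all genes. Centring each array on its median moved all genes up together, to a median of 0.08, and left 22 of the 45 positive and 23 negative. Relative to all genes, the median of the 45 stood at -0.0854 both before and after that centring. This had to be so, since centring shifts all genes on an array alike. Over the alternatives, this relative median ran from -0.1279 (quantile normalization) to -0.0214 (poly-A control signal as a covariate).

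Psmd6, another lid gene, is measured by 2 probe sets above the filter, and they gave unlike answers. The gene was picked for this paragraph after its values were seen. The brighter probe set, 1423697_at, read 12.39, 12.57, 12.29, 12.47 and 12.29 on B6C3F1 arrays, 12.19, 12.16, 12.26, 12.07 and 12.37 on C3H arrays and 12.25, 12.40, 12.40, 12.21 and 12.49 on C57Bl/6 arrays. The strains overlapped on it, with a C3H minus C57Bl/6 difference of -0.14 (limma adjusted p = 0.341 in a fit over all probe sets). The other, 1423696_a_at, read 12.20, 12.07, 11.93, 12.13 and 11.98 on B6C3F1 arrays, 7.43, 7.71, 8.30, 7.73 and 7.57 on C3H arrays and 12.04, 12.27, 12.34, 11.98 and 12.39 on C57Bl/6 arrays. All 5 C3H arrays stood far below all others, and B6C3F1 lay beside C57Bl/6. On this probe set the C3H minus C57Bl/6 difference was -4.45 ± 0.13 (SE; 21.9-fold; limma adjusted p = 3.81e-15), the 11th lowest of 23048 probe sets, while B6C3F1 minus C57Bl/6 was -0.14 (adjusted p = 0.611) and B6C3F1 minus the midparent was 2.09 (adjusted p = 2.14e-09). The midparent averages log2 values, so a hybrid at the mean of the unlogged parental signals would already lie above it. The 2.09 therefore does not show by itself that B6C3F1 departs from the mean of its parents. The sequences of the probes and of the C3H gene were not used here, and why the probe sets differ was not tested.

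**Figure D2:**
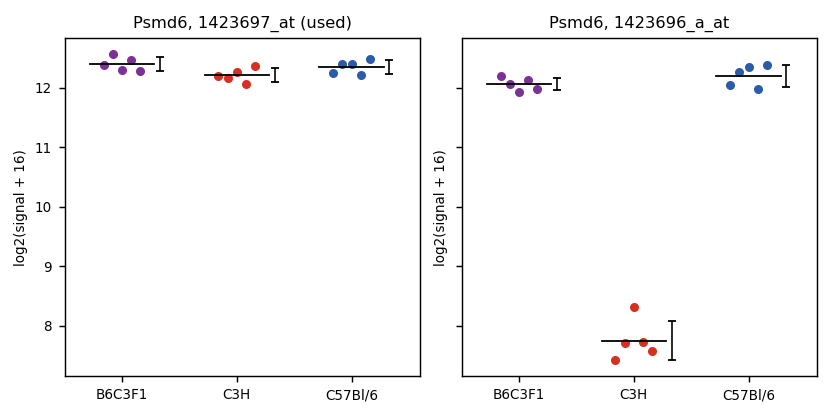
Signal of both Psmd6 probe sets by array, as log2(signal + 16) on a shared y axis, for B6C3F1, C3H and C57Bl/6 (points, arrays 1 to 5 left to right; line, mean; error bar, SD). C3H lies at 7.43 to 8.30 on 1423696_a_at, where the other strains lie at 11.93 to 12.39, and overlaps them on 1423697_at.

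Other genes showed how far a call depends on the probe set. Of the 45 tested genes, 22 had over 1 probe set above the filter, which gave 36 further probe sets. For C3H minus C57Bl/6, 2 of these 36 passed, the Psmd6 set above and one of Psme4 (1426824_at, -0.56, limma adjusted p = 0.0400), against 13.7% of all 23048 probe sets in that fit, and 19 had the sign of the set used. For B6C3F1 minus C57Bl/6, 0 of 36 passed, against 3.18%, and 23 had the same sign. For B6C3F1 minus C3H, 1 of 36 passed, against 5.15%, and 26 had the same sign. That one was again the Psmd6 set (4.31, adjusted p = 2.85e-14).

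The activators moved in different directions. Psme1 encodes the alpha subunit of the interferon-inducible activator ring, which opens the core to peptides without ubiquitin. Its signals were 12.75, 12.81, 12.69, 12.64 and 12.62 on B6C3F1 arrays, 12.52, 12.71, 12.70, 12.68 and 13.10 on C3H arrays and 12.22, 12.52, 11.99, 12.25 and 12.32 on C57Bl/6 arrays. Every B6C3F1 array was above every C57Bl/6 array, and the lowest C3H array met the highest C57Bl/6 array at 12.52. The difference was 0.48 ± 0.11 for C3H minus C57Bl/6 (SE; 1.40-fold; limma adjusted p = 0.00312) and 0.44 ± 0.11 for B6C3F1 minus C57Bl/6 (1.36-fold; adjusted p = 0.0236). B6C3F1 minus C3H was -0.04, with an interval of -0.26 to 0.18. The C3H call held in all 32 alternatives, and the B6C3F1 call was lost in 7.

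Psme4 encodes the large single-chain activator known from the nucleus and from histone degradation. Its signals were 13.80, 14.08, 14.05, 13.94 and 14.12 on B6C3F1 arrays, 14.16, 13.84, 14.12, 14.07 and 13.81 on C3H arrays and 14.51, 14.20, 14.17, 14.35 and 14.20 on C57Bl/6 arrays. Every C57Bl/6 array lay above every other array, though by little. The difference was -0.28 ± 0.09 for C3H minus C57Bl/6 (SE; 1.22-fold; limma adjusted p = 0.0464), a call lost in 20 of the 32 alternatives, and -0.28 for B6C3F1 minus C57Bl/6 (adjusted p = 0.0940). A further bright probe set of the gene, 1452211_at, gave -0.14 for C3H minus C57Bl/6 (adjusted p = 0.503).

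Psme3 and Psmf1 did not pass. Psme3, which encodes the nuclear activator of the same family as Psme1, had signals of 10.87, 10.90, 10.81, 10.75 and 10.80 on B6C3F1 arrays, 10.70, 10.63, 10.83, 10.95 and 10.78 on C3H arrays and 10.74, 10.94, 11.05, 10.82 and 10.94 on C57Bl/6 arrays. The strains overlapped, and the interval of C3H minus C57Bl/6 was -0.30 to 0.07. Psmf1, which encodes a protein first described as an inhibitor of the core, had signals of 9.52, 9.27, 9.44, 9.16 and 8.97 on B6C3F1 arrays, 9.24, 9.37, 9.58, 9.53 and 9.52 on C3H arrays and 9.06, 9.36, 9.06, 9.15 and 8.98 on C57Bl/6 arrays. The C3H arrays lay towards the top with some overlap, at 0.33 for C3H minus C57Bl/6 (adjusted p = 0.0740). Its further probe sets above the filter did not share a direction: for the same contrast they gave 0.18 (1424370_s_at, limma adjusted p = 0.485 in the fit over all probe sets), -0.46 (1424369_at, adjusted p = 0.0899) and -0.90 (1424371_at, adjusted p = 0.0761).

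The assembly chaperones held both the highest and the lowest passing difference for C3H minus C57Bl/6. Psmg4 encodes a chaperone that acts with the Psmg3 product while the alpha ring forms. Its signals were 9.57, 9.91, 9.41, 9.68 and 8.80 on B6C3F1 arrays, 9.29, 9.85, 9.88, 9.85 and 10.34 on C3H arrays and 8.41, 9.14, 9.00, 8.55 and 8.94 on C57Bl/6 arrays. The C3H arrays were all above the C57Bl/6 arrays, and B6C3F1 array 5 was the only one of its strain within the C57Bl/6 range. The difference was 1.04 ± 0.20 for C3H minus C57Bl/6 (SE; 2.05-fold; limma adjusted p = 0.00114) and 0.67 for B6C3F1 minus C57Bl/6 (adjusted p = 0.0688). The C3H call was lost in 1 of the 32 alternatives, the mean over probe sets (adjusted p = 0.0736). Psmg3, its partner, stood at 0.24 for C3H minus C57Bl/6 (adjusted p = 0.239).

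Psmd9 encodes a chaperone of the ATPase ring. Its signals were 9.07, 8.63, 9.00, 9.03 and 8.47 on B6C3F1 arrays, 8.40, 8.55, 8.55, 8.01 and 8.81 on C3H arrays and 8.59, 9.09, 8.97, 9.14 and 9.07 on C57Bl/6 arrays. The strains overlapped through C57Bl/6 array 1 and C3H array 5, and the lowest value was that of C3H array 4, the array with the brightest poly-A controls. The C3H minus C57Bl/6 difference was -0.51 ± 0.16 (SE; 1.42-fold; limma adjusted p = 0.0365), and it was -0.39 without C3H array 4 (adjusted p = 0.110). The call was lost in 15 of the 32 alternatives. The other 5 chaperone genes did not pass in any comparison.

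**Figure D3:**
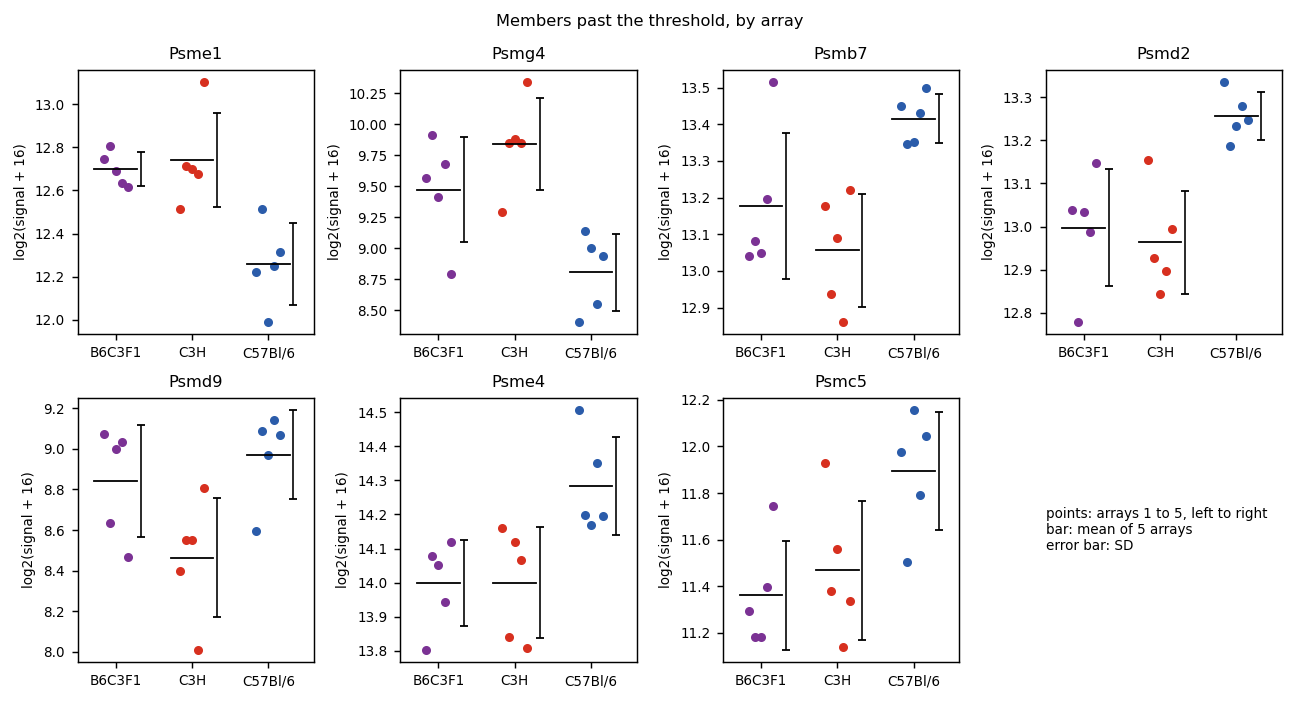
Signal by array of the 7 genes that passed in any comparison, as log2(signal + 16), each panel on its own y axis, for B6C3F1, C3H and C57Bl/6 (points, arrays 1 to 5 left to right; line, mean; error bar, SD). C57Bl/6 lies below the other means for Psme1 and Psmg4 and above them for the other 5 genes.

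For C3H minus C57Bl/6, the arrays of the strains did not overlap for 4 of the 45 genes (Psmb7, Psmd2, Psme4 and Psmg4), against 11.2% of all genes. For B6C3F1 minus C57Bl/6 the count was 3 (Psmd2, Psme1 and Psme4), against 6.16%. For B6C3F1 minus C3H it was 1, Psmd10, an assembly chaperone also known as an oncoprotein (adjusted p = 0.274), against 6.4%. The B6C3F1 contrasts share arrays with each other and with the parental one, so their values are given side by side and their likeness is not a result.

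The parental count was also smaller when the poly-A controls were taken into account. Without C3H array 4 and C57Bl/6 array 5, a choice made after seeing the data, 2 of 45 genes passed for C3H minus C57Bl/6, Psme1 (0.51, limma adjusted p = 0.0105) and Psmg4 (1.07, adjusted p = 0.00580), against 11.5% of all genes. With the poly-A signal as a covariate, again 2 passed, Psme1 (0.53, adjusted p = 0.00868) and Psmg4 (1.12, adjusted p = 0.00452), against 10.4% of all genes. In this signal every C3H array (10.63 or more) lay above every C57Bl/6 array (10.55 or less) and every B6C3F1 array (10.54 or less). The covariate thus moves with strain, and adjusting for it can remove strain differences. Calls lost under it do not show that the poly-A signal made them. Psmb7, Psmd2, Psmd9 and Psme4 lost their calls in both settings, but their differences stayed negative, and some were as large as before. Without the 2 arrays they were -0.29, -0.28, -0.37 and -0.32 in that order, and with the covariate -0.27, -0.29, -0.31 and -0.35, beside -0.36, -0.29, -0.51 and -0.28 over all arrays. The same 4 calls were lost with each array centred on its median, at adjusted p-values of 0.143 to 0.254.

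Array-to-array variation was the second question. The SD over the 5 arrays of a strain, pooled over the 3 strains, had a median of 0.15 over the 45 genes, against 0.26 over all genes tested. It was below that all-gene median for 38 of the 45. Spread also moves with signal, and 38 of the 45 genes lie among the brightest when all genes are cut into 4 equal groups by mean signal. Within that group the medians were 0.14 for them and 0.17 for all genes, with 28 of the 38 below the median of the group. The 38 were still brighter within it, at a median signal of 12.35 against 11.72, so signal was not fully matched. By strain, the median SD was 0.13 in B6C3F1, 0.15 in C3H and 0.13 in C57Bl/6, against 0.23, 0.26 and 0.24 over all genes.

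The genes differed among themselves in this spread. The steadiest was Psmd12, a lid gene, with a pooled SD of 0.08, followed by Psmb5 (0.09) and Psmc2, an ATPase gene (0.09). The least steady were Psmg4 (0.37), Psmd7, which encodes the lid partner of the deubiquitinating subunit (0.34), and Psmc3ip (0.34), a recombination factor gene that is no subunit. Psmd7 had signals of 10.97, 11.19, 11.18, 11.31 and 11.82 on B6C3F1 arrays, 12.05, 11.45, 11.52, 11.20 and 10.99 on C3H arrays and 11.77, 11.05, 11.57, 11.65 and 11.43 on C57Bl/6 arrays. Its range within C3H alone, from 10.99 on array 5 to 12.05 on array 1, covered nearly all arrays of the other strains, and C3H minus C57Bl/6 was -0.05, with an interval of -0.43 to 0.32. Psmc3ip had signals of 7.86, 7.77, 7.81, 8.04 and 8.00 on B6C3F1 arrays, 7.72, 7.97, 8.09, 8.46 and 7.26 on C3H arrays and 6.95, 7.67, 7.88, 7.66 and 7.54 on C57Bl/6 arrays. It was unsteady in the parents and not in B6C3F1, where its SD was 0.12, against 0.45 in C3H and 0.35 in C57Bl/6. By role, the median pooled SD was 0.13 for alpha genes, 0.15 for beta genes, 0.13 for ATPase genes, 0.13 for lid genes and 0.18 for assembly chaperones.

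**Figure D4:**
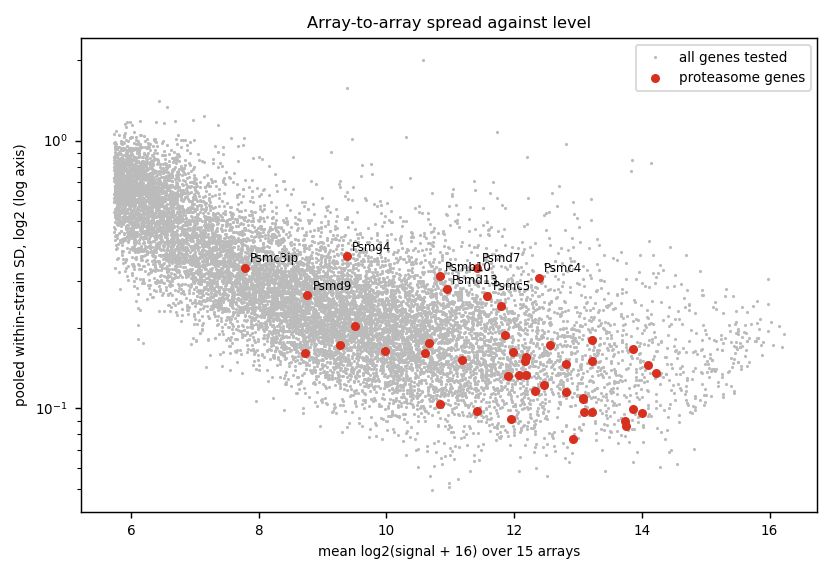
Pooled within-strain SD (y, log axis) against mean log2(signal + 16) over 15 arrays (x) for the 45 proteasome genes (red) and all 13111 genes tested (grey); genes with an SD over 0.26 are named. Most red points lie at the bright end and low in the cloud, with Psmg4 at 0.37 and Psmd12 at 0.08 as the extremes.

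The share of the 45 genes above the mean of their strain ran from 13 genes on B6C3F1 array 1 to 32 on C57Bl/6 array 3, that is 28.9% to 71.1% of the 45, against 48.5% to 55.9% of all genes tested. The mean deviation of the 45 on an array ran from -0.09 to 0.09 on the log2 scale, against -0.03 to 0.04 for all genes. Both all-gene ranges are narrow in advance, since the arrays were scaled alike and 13111 genes average out more than 45. The wider ranges of the 45 are therefore not read as these genes moving together. There was also a split on 3 arrays, 1 per strain, that were singled out after the values were seen. Psmc5, Psmd1, Psmd2, Psmd4, Psmd7 and Psmd13, all of the base or lid, were each at their strain's highest on B6C3F1 array 5 and C3H array 1 and at its lowest on C57Bl/6 array 2. Psma5, Psma6, Psmd8, Psme1, Psmf1 and Psmg4 were the mirror image, lowest, lowest and highest. The deviations reached 0.52, 0.61 and -0.44 for Psmd7, and -0.68, -0.55 and 0.33 for Psmg4, on B6C3F1 array 5, C3H array 1 and C57Bl/6 array 2 in that order. Thus 12 of the 45 genes (26.7%) had one pattern or its mirror, and so did 1406 of all 13111 genes (10.7%), so that the split reached well beyond the proteasome.

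Other measures on these 3 arrays were as follows. The poly-A signal (10.39 on B6C3F1 array 5, 10.81 on C3H array 1 and 10.45 on C57Bl/6 array 2) and the Gapdh ratio (0.69, 0.53 and 1.02) lay inside the range of the other arrays of each strain. The summed signal of the 8 endothelial markers followed the first pattern: it was the highest of its strain on B6C3F1 array 5 (13.74) and C3H array 1 (13.57) and the lowest on C57Bl/6 array 2 (13.36), in log2. Endothelial sums ranged from 13.12 to 13.74 in B6C3F1, 12.87 to 13.57 in C3H and 13.36 to 13.74 in C57Bl/6. These sums are of unlogged signal, in which Kdr, the brightest of the 8, weighs most. Which of the 8 markers followed the pattern singly was not examined. The single adipocyte marker tested, Fabp4, followed the mirror pattern, at 14.62, 14.41 and 14.97 on those arrays, while Adipoq, Lep and Cidec lay below the filter. The sums of 8 cardiomyocyte, 8 fibroblast, 7 leukocyte and 4 atrial markers followed neither pattern in full. What part any of this has in the split was not tested. Of the genes that passed, Psmc5 and Psmd2 belong to the first pattern and Psme1 and Psmg4 to its mirror. Their calls were kept with these 3 arrays left out, a setting chosen by these same values, which narrows the spread by construction.

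**Figure D5:**
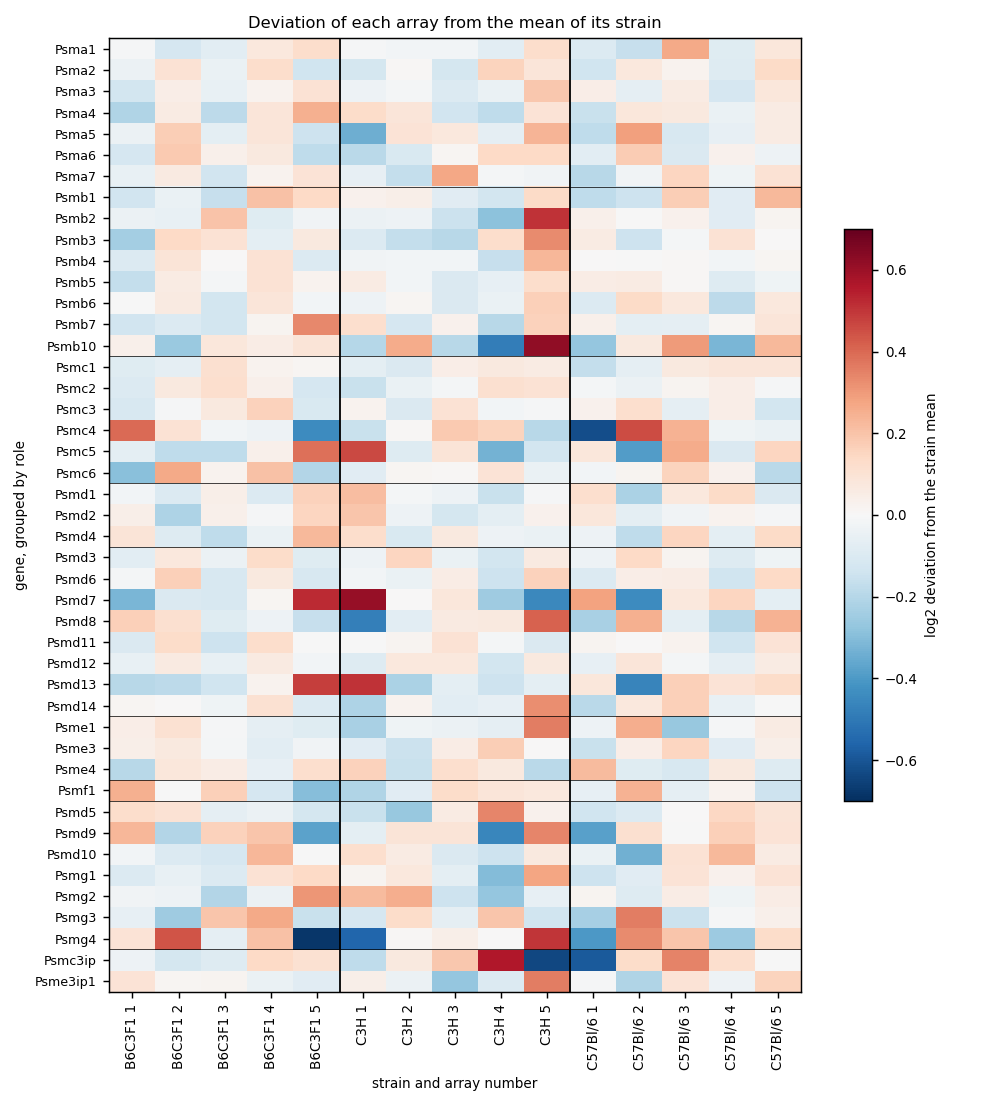
Deviation of each array from the mean of its strain (colour, log2 difference) for the 45 genes, grouped by role down the page, over 5 B6C3F1, 5 C3H and 5 C57Bl/6 arrays. On B6C3F1 5, C3H 1 and C57Bl/6 2, Psmc5, Psmd7 and Psmd13 lie opposite in sign to Psmd8, Psme1 and Psmg4.

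Among genes that work with the proteasome, the ubiquitin list had 27 of its 36 genes tested. For C3H minus C57Bl/6, 1 was higher and 4 lower, which is 18.5% of the 27, near the 15.7% of all genes. The higher one was Ube3a, a ubiquitin ligase (0.41, limma adjusted p = 0.0445). The lower ones were Rad23b (-0.67, adjusted p = 0.00149) and Ubqln1 (-0.54, adjusted p = 0.0213), shuttle proteins that carry tagged substrates, Vcp, the segregase that extracts them (-0.52, adjusted p = 0.0218), and Ecpas, a proteasome-binding adaptor (-0.48, adjusted p = 0.0119). The median of the list was -0.10, against -0.02 over all genes. For B6C3F1 minus C57Bl/6, Rad23b alone of the 27 passed (-0.50, adjusted p = 0.0416), which is 3.70%, against 3.83% of all genes. For B6C3F1 minus C3H, 2 of 27 passed (7.41%, against 6.2% of all genes): Trim63, the muscle-specific ubiquitin ligase of sarcomere turnover, was higher (0.37, adjusted p = 0.0339) and Ube3a was lower (-0.66, adjusted p = 0.00454). Pomp, which helps the beta ring to mature, and Sem1, a small lid subunit outside the symbol rule, did not pass, at 0.10 (adjusted p = 0.593) and 0.29 (adjusted p = 0.0924) for C3H minus C57Bl/6. Adrm1, a ubiquitin receptor of the base, was not analysed here.

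Of the 11 genes listed as regulators of proteasome genes, 9 were tested and 1 passed for C3H minus C57Bl/6 (11.1%, against 15.7% of all genes). Nfe2l1 did not pass: its mean signal was 11.02 in B6C3F1 (10.36 to 12.23), 11.51 in C3H (11.26 to 12.22) and 12.00 in C57Bl/6 (11.14 to 12.33), with -0.49 for C3H minus C57Bl/6 (limma adjusted p = 0.282) and -0.98 for B6C3F1 minus C57Bl/6 (adjusted p = 0.0602). Mafk, which encodes a small partner of such factors, was lower in C3H than in C57Bl/6 (-0.39, adjusted p = 0.0293) and higher in B6C3F1 than in C3H (0.49, adjusted p = 0.0150). The summed signal of these 9 genes was also at its strain's highest on B6C3F1 array 5 (14.09) and C3H array 1 (14.10) and at its lowest on C57Bl/6 array 2 (13.81). The sum is of unlogged signal, in which bright genes weigh most, among them Nfe2l1 with the wide ranges given above. Which of the 9 followed this pattern singly was not examined. Of 9 genes of the interferon response and peptide supply, to which the products of Psme1 and Psmb10 are tied, 8 were tested. For C3H minus C57Bl/6, 0 were higher and 2 lower (25.0% of the 8, against 15.7% of all genes), the factor Irf1 (-0.37, adjusted p = 0.0317) and the peptide-loading chaperone Tapbp (-0.42, adjusted p = 0.0274), which is the opposite sign to Psme1.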

How the data were processed

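Heart apex RNA (50 ng, amplified in a two-cycle labelling, per the labels) of 15 mice was measured on Affymetrix arrays. The deposited values are log2 values, made with MAS5 per the submitters' processing notes; the MAS5 version is not given in the sources that were used, and the log2 scale was read from the values. Values were unlogged, raised by 16 and logged again (base 2). Probe sets were named through the platform's annotation, and those with several symbols or none were left out. A gene's brightest probe set stood for it, above the 40th percentile of probe-set means (5.74). Differences were fitted with limma 3.58.1 in R 4.3.3 (lmFit, eBayes with an intensity trend) over 13111 genes, for B6C3F1 against each parent and against their midparent, and for C3H minus C57Bl/6. The fit was tested on simulated data. No depth exists for arrays, so that their number limits the precision.

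The members, gene lists and tests were chosen with earlier results of these data known. Array values were given for members past the threshold, the catalytic beta genes, activators, the inhibitor and the 3 members of largest spread; for others, the 2 largest differences each way. Alternatives covered the pseudocount, dim filter, scaling, probe-set choice, eBayes settings, covariates, array weights, the replicate block and leaving out arrays. Promoter windows are RefSeq's (GRCm38.p6).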

Additional observations from a re-analysis of the deposited data

Results flagged for a closer look

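In 4 of 135 groups of 5 arrays, the highest or lowest array lay far from the other 4 by Dixon's criterion, which chance meets in about 1 in 20 groups. Psmb10, the inducible catalytic gene, read 10.68 on B6C3F1 array 2, against 10.98 to 11.03 on the other B6C3F1 arrays. Psmb2, a core beta gene, read 12.11 on B6C3F1 array 3, against 11.83 to 11.89 on the others. Psmd13, a lid gene, stood out in both parents: it read 11.35 on C3H array 1, against 10.62 to 10.78 on the other C3H arrays, and 10.78 on C57Bl/6 array 2, against 11.32 to 11.41 on the other C57Bl/6 arrays. Those are arrays of the split described above, and what sets them apart was not tested.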

How the results depend on the processing

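The parental count of 6 of 45 (15.7% of all genes) moved to 2 with the poly-A covariate (10.4%) and 12 with array weights (17.5%). It was 2 without C3H array 4 and C57Bl/6 array 5 (11.5%). Without B6C3F1 array 5, C3H array 1 and C57Bl/6 array 2 it was 11 (20.3%). Leaving out 1 array gave 4 to 10, while 12.5% to 17.3% of all genes passed. The 10 came without C57Bl/6 array 2 (16.3%). With each array centred on its median the 5 calls were all higher in C3H. The settings that leave out 2 or 3 arrays at once were chosen after seeing the data. The B6C3F1 minus C57Bl/6 count of 2 (3.83% of all genes) became 1 with no dim filter (2.3%) and with median centring (2.4%). It was also 1 with the mean over probe sets (2.36%) and without the first pair of arrays (3.17%). It was 0 without the eBayes trend (2.32%) and 6 with array weights (10.0%). Without the 3 arrays it was 12 (1703 of 13111 genes, against 502), so that the share of all genes rose too. Leaving out 1 array gave 0 to 6. The count was 6 without B6C3F1 array 5 (6.19%), and 4 without C3H array 1 (5.48%) or C57Bl/6 array 2 (6.3%). It was 0 without B6C3F1 array 1, 2 or 3 or C57Bl/6 array 1, 3 or 4 (2.01% to 2.4%). The B6C3F1 minus C3H count of 0 (6.2% of all genes) became 1 with the mean over probe sets (Psmd6; 4.29%). It was 0 to 1 leaving out 1 array (1 without C3H array 5, with 8.52% of all genes). The B6C3F1 minus midparent count of 0 became 1 with the mean over probe sets (0.356% of all genes) and 2 without the 3 arrays (3.08%). It was 0 to 0 leaving out 1 array. The median spread of 0.15 became 0.19 with median centring, 0.20 with the mean over probe sets and 0.13 without the 3 arrays, and was 0.14 to 0.16 leaving out 1 array. Psmd2 reversed to 0.17 for C3H minus C57Bl/6 with the mean over probe sets. Causes were not tested beyond the arrays and probe sets each setting drops or averages.

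The replicate block used the label's replicate number as a factor. It gave 5 calls (15.6% of all genes), 2 (3.74%), 0 (6.59%) and 0 (0.892%) in the 4 contrasts in the order above. It lost Psmd9 (adjusted p = 0.0630) and Psme4 (adjusted p = 0.0731) and gained Psmc5 (adjusted p = 0.0405) between the parents. Only 2 of 15 same-numbered pairs correlated over 0.1 (lowest -0.06, highest 0.13), and 4 of 15 arrays matched their own number best, so the numbers do not pair the mice.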
